A study of Homo sapiens with 4 samples.

Results

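The genes described here encode the protein subunits of the mitochondrial ribosome, taken as every gene whose name is MRPL or MRPS followed by a number and, in some, a letter from A to C. The name rule found 78 of the 58174 genes listed, 49 named MRPL for the large subunit and 29 named MRPS for the small subunit, and left out pseudogenes and readthrough models. All 78 are protein coding in GENCODE release 29, and all 78 reached an FPKM of at least 1 in some library. FPKM counts fragments per length of the gene's transcripts and per sequencing depth, so it can be compared between genes within a library.

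The messenger RNA came from LM3, a human hepatocellular carcinoma line, and RBE, a human intrahepatic cholangiocarcinoma line. Cells of each line were collected 48 h after lipofection with si-FENDRR, an interfering RNA directed at the long noncoding RNA FENDRR, or with the control si-NC. The 4 groups were therefore LM3 with si-FENDRR, LM3 with si-NC, RBE with si-FENDRR and RBE with si-NC, with 1 library each. The series sets si-FENDRR against si-NC in these lines.

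FENDRR was listed at 0 in all 4 libraries, so the knockdown has no check in these values, and the libraries are compared by their labels. Between 13437 and 13682 genes per library reached 1 FPKM. Read counts, and with them counting errors, are not known. The line labels were set against marker genes: ALB and CEBPA of hepatocytes were at 35.7 and 81.8 FPKM in the si-FENDRR library of LM3 and 33.3 and 93.1 FPKM in its si-NC library. In RBE the 2 genes were at 0.251 and 2.89 FPKM under si-FENDRR and 0.27 and 2.69 FPKM under si-NC. The bile duct keratin KRT7 was at 7.21 and 6.02 FPKM in LM3, against 429 and 391 FPKM in RBE. Of 10 hepatocyte markers, 8 were tested, with 5 called higher in LM3 and 2 lower. Those 2 were SERPINA1, at 0.0957 and 0.0892 FPKM in LM3 against 56.8 and 82.5 FPKM in RBE, and TTR, at 0.883 and 0.81 against 6.39 and 8.41 FPKM. Of 9 cholangiocyte markers, 8 were tested, with 1 called higher in LM3 and 7 lower. The higher one was SPP1, at 1118 and 909 FPKM in LM3 against 515 and 504 FPKM in RBE. Of the markers of other cell types, 5 of 7 for fibroblasts, 1 of 5 for immune cells (CD68) and 1 of 4 for endothelium (PECAM1) reached an FPKM of 1. CD68 and PECAM1 were called higher in LM3. The fibroblast markers summed to 30.2 and 26.9 FPKM in LM3, against 9.07 and 7.94 FPKM in RBE, with LUM and COL3A1 called higher in LM3 and COL1A1, PDGFRA and PDGFRB lower. LUM alone was at 28.4 and 24.9 FPKM in LM3 and listed at 0 in RBE. The part of these markers in the results between the lines was not tested.

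Mitochondria carry their own ribosome, which translates the few respiratory chain proteins that mitochondrial DNA encodes. Its ribosomal RNAs come from mitochondrial DNA, whereas every one of its proteins is encoded in the nucleus, made in the cytosol and imported. Some of these proteins have counterparts in bacterial ribosomes, and others are found only in mitochondria. The large subunit joins amino acids and feeds the new chain to the inner membrane, and the small subunit reads the messenger RNA.

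By these roles, 29 of the genes encode large subunit proteins with bacterial counterparts and 22 encode large subunit proteins specific to mitochondria. MRPS30 and MRPS18A are placed with the 22, because their products sit in the large subunit in spite of their names, MRPS18A being a paralog of small subunit proteins. For the small subunit, 17 of the genes found by name were listed as having bacterial counterparts and 9 as specific to mitochondria. MRPS18B and MRPS18C were both listed with the 17, unlike their paralog MRPS18A. Mitoribosomal proteins under other names, such as DAP3, are not in these counts. MRPS36 belongs to neither: its product is now known as a subunit of the 2-oxoglutarate dehydrogenase complex. The genes lie on 21 chromosomes, with at most 8 on any one.

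Promoters are shown for the genes whose expression values the results turn on. MRPL30 and MRPL42 had more RNA under si-FENDRR in each line, MRPL34 and MRPL55 went opposite ways in the lines, MRPS27 differed most between the lines, and the MRPL46 window also holds the start of the divergent gene MRPS11. Each is the RefSeq window on GRCh38.p14 from 250 bases before the gene's start to 50 after it, read 5′ to 3′ on the gene's strand. Capitals mark a match to 1 of 3 motifs on either strand. The NRF1 motif is GCGC, any base, then TGCGC, the ETS motif of factors such as GABPA is CCGGAAG, and the YY1 motif is AAGATGGCG. These factors are known regulators of nuclear genes for mitochondrial proteins. On the other strand the NRF1 motif reads GCGCA, any base, then GCGC, and no motif contains another.
MRPL30 (chr2:99180934-99181233, plus strand): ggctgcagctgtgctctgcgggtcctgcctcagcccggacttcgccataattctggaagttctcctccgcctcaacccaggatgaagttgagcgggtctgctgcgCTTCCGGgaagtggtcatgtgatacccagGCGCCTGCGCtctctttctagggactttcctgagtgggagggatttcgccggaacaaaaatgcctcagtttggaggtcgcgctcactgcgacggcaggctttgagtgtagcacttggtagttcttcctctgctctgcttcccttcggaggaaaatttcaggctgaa
MRPL42 (chr12:93467264-93467563, plus strand): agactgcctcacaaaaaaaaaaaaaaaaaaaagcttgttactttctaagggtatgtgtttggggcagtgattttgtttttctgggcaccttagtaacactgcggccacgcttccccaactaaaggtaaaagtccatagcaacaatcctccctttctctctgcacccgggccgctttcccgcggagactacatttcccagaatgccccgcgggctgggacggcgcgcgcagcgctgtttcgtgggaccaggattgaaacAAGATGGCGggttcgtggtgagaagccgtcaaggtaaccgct
MRPL34 (chr19:17292323-17292622, plus strand): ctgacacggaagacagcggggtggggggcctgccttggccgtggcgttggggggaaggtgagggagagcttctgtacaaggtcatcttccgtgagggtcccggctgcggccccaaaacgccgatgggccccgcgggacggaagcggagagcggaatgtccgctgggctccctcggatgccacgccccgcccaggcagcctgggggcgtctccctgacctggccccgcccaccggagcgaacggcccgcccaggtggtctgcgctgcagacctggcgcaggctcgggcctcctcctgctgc
MRPL55 (chr1:228109250-228109549, minus strand): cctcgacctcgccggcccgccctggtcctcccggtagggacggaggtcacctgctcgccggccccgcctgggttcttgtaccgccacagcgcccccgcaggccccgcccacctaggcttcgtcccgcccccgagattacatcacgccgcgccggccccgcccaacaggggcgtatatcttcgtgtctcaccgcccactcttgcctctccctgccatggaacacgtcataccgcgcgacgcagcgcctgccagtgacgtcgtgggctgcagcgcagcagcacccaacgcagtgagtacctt
MRPS27 (chr5:72320191-72320490, minus strand): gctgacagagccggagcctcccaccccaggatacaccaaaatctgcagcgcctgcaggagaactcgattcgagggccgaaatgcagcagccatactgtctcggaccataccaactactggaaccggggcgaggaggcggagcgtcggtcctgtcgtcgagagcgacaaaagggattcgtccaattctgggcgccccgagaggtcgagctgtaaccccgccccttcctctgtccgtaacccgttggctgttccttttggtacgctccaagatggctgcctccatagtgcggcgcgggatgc
MRPL46 (chr15:88467339-88467638, minus strand): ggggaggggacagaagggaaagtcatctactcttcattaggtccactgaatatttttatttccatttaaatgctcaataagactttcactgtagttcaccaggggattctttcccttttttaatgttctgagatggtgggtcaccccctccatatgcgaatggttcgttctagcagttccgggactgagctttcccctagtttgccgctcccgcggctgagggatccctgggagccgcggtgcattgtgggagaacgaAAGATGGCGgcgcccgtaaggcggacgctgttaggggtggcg

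Of the 6 windows, 3 held a match and 3 held none. The MRPL30 window held an ETS match and an NRF1 match, and the windows of MRPL42 and MRPL46 held a YY1 match close to the start. A window in the table was found for 69 of the 78 genes. In these, CCGGAAG occurred in 29 (42.0%), against 10.7% of 27305 promoters of all genes in the table. AAGATGGCG occurred in 13 (18.8%, against 1.85%) and the NRF1 motif in 8 (11.6%, against 6.28%). At least 1 of the 3 was in 43 windows (62.3%, against 17.0%). The TATA box letters TATAAA occurred in 2 of the 69 (2.9%), against 12% of all promoters. A match is a run of letters and not a measured binding site.

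The genes were well expressed in all 4 libraries and had similar levels in the libraries of a line. Together they made up 0.533% of all FPKM in the si-FENDRR library of LM3 and 0.548% in its si-NC library, against 0.645% and 0.647% in the libraries of RBE. The median gene was at 26.5 and 26.7 FPKM in LM3, against 35.2 and 36.8 FPKM in RBE. These medians lay at the percentiles 79.8 and 79.7 of genes at 1 FPKM or more in LM3 and 85.6 and 86.4 in RBE. Across the 78 genes, log2 levels of the libraries of a line had a Pearson r of 0.962 in LM3 and 0.956 in RBE. Between a library of LM3 and one of RBE, r was 0.776 to 0.806. The 78 points of such a correlation share libraries and are not replicates.

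**Figure D1:**
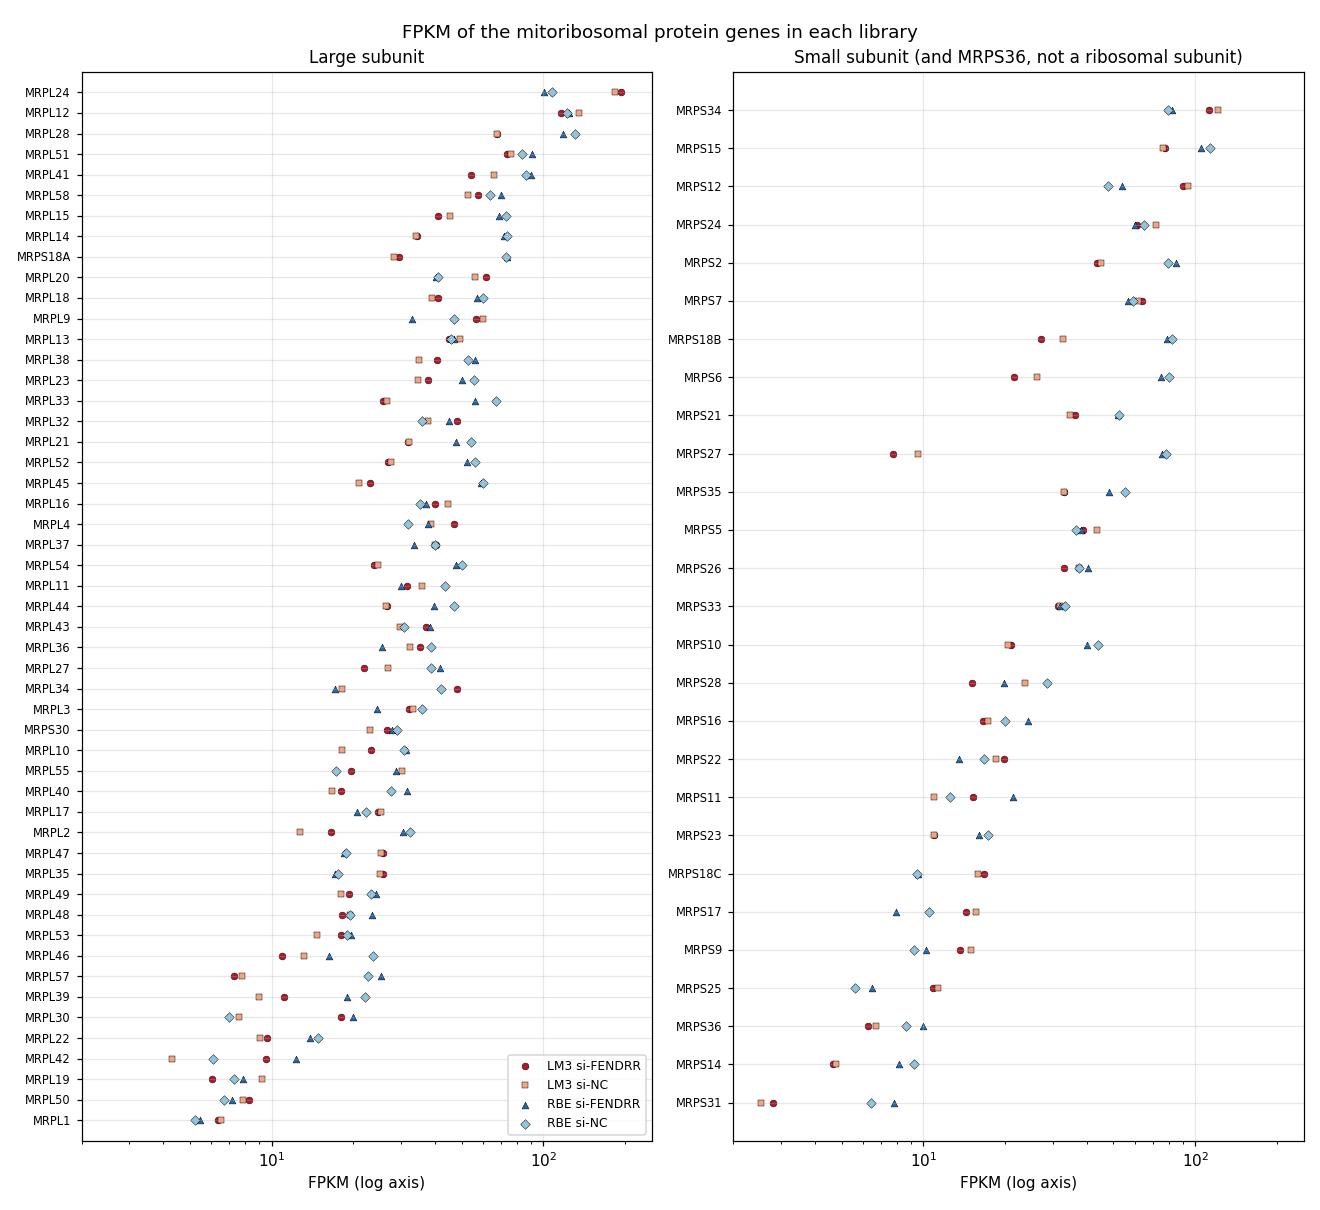
FPKM of each gene on a log axis, large subunit on the left and small subunit with MRPS36 on the right, ordered by the mean over the 4 libraries. Each point is 1 library, and the spread runs from 2.52 FPKM for MRPS31 to 192 FPKM for MRPL24, both in LM3.

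RNA levels of the genes spanned a wide range. The fixed proportion in which a ribosome is assembled is one of proteins, which were not measured here. MRPL24, a protein at the exit of the nascent chain, was highest by the mean over the 4 libraries, at 192 and 184 FPKM with si-FENDRR and si-NC in LM3 cells, against 100.3 and 108 FPKM in RBE cells. In RBE, MRPL12, MRPL28 and MRPS15 stood above it in both libraries. MRPL12, the mobile stalk protein that binds translation factors, was at 116 and 135 FPKM in LM3, against 124 and 122 FPKM in RBE, with no separation of the lines. MRPS34, MRPL28, MRPS15 and MRPL51 followed, with means over the 4 libraries of 98.8, 96.0, 93.0 and 81.1 FPKM. The lowest were MRPS31, MRPL1, MRPS14, MRPL50, MRPL19 and MRPS36, with means of 4.89, 5.89, 6.70, 7.49, 7.58 and 7.87 FPKM. The mean of the large subunit genes over that of the small subunit genes was 1.1 and 1.01 in LM3 and 1.02 and 1.03 in RBE.

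Between the transfections, levels of most of the genes were close. With both lines in 1 fit, limma called 0 of the 78 for si-FENDRR against si-NC (adjusted p under 0.05), and it called 0.0% of the 15930 genes tested. At an unadjusted p under 0.05 there were 7 of the 78 (8.97%), against 4.12% of all genes tested. These were MRPL30, MRPL42, MRPS11, MRPL32 and MRPL43, each with more RNA under si-FENDRR in each line, and MRPS28 and MRPL46, each with less. For the 78, the median of the log2 difference, si-FENDRR minus si-NC, was -0.01 in LM3 and -0.03 in RBE, against 0.00 and 0.02 over all genes tested. In LM3, 68 of the 78 differed by less than 1.25-fold, and in RBE 65 did, which is 87.2% and 83.3% against 76.8% and 81.2% of all genes tested.

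Within a line there is 1 library per transfection, so genes are counted by size, and no test is given. In LM3, 5 of the 78 differed at least 1.5-fold in FPKM + 1, against 7.97% of all genes tested. MRPL30, MRPL42 and MRPL34 were higher (4.49% of all genes) and MRPL55 and MRPS28 were lower (3.47%). In RBE, 5 of the 78 did (6.27% of all genes). MRPL30, MRPL42, MRPS11 and MRPL55 were higher (3.18%) and MRPL34 was lower (3.09%). Higher in both lines were 2 of the 78 (0.326% of all genes), lower in both were 0 (0.358%), and opposite in the lines were 2 (0.734%). With the direction alone counted, 16 of the 78 were higher in both lines and 21 lower in both, against 26.9% and 21.8% of all genes.

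**Figure D2:**
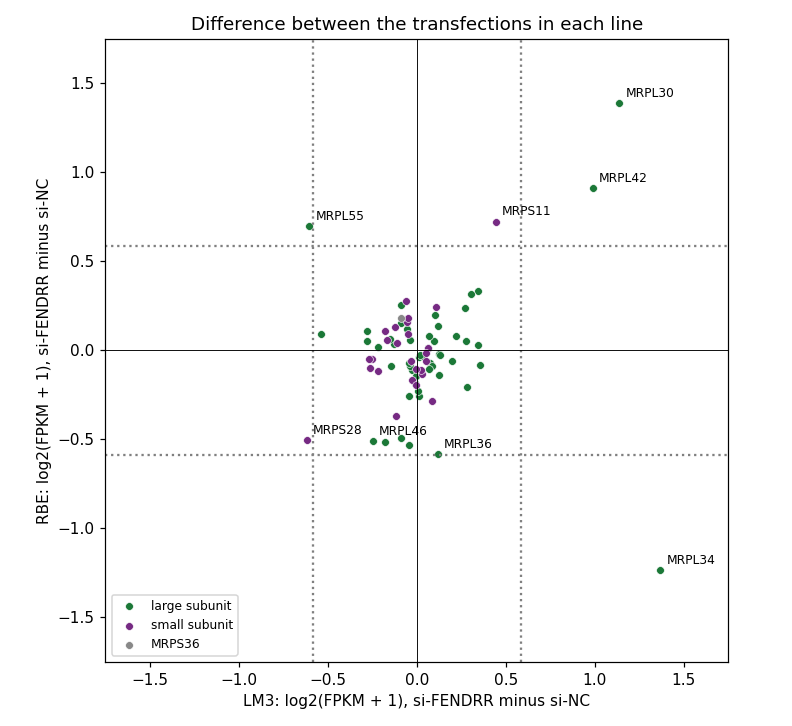
Difference in log2(FPKM + 1), si-FENDRR minus si-NC, of each gene in LM3 (horizontal axis) and RBE (vertical axis). Dotted lines mark 1.5-fold. Most points lie near 0, MRPL30 and MRPL42 lie to the upper right, and MRPL34 and MRPL55 lie in opposite corners.

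MRPL30, the counterpart of bacterial ribosomal protein uL30, had 18 FPKM with si-FENDRR against 7.62 FPKM with si-NC in LM3, and 19.9 against 6.95 FPKM in RBE. Both si-FENDRR libraries stood above both si-NC libraries. Such an order is described, here and below, in genes picked by their coefficients. It was not tested, and its share over all genes is not given. The difference in log2(FPKM + 1) was 1.26 ± 0.13 (limma SE, n = 2 lines), and the adjusted p by limma was 0.783, lower than that of any other of the 78. The gene (ENSG00000185414) lies at chr2:99181079-99197626 on the plus strand of hg38 and shares exon bases on its strand with AC092587.1. That model had 2.01 against 0.579 FPKM in LM3 and was listed at 0 in both RBE libraries. MITD1, which starts 21 bp away on the other strand, had 18.1 against 19.8 FPKM in LM3 and 6.37 against 7.65 FPKM in RBE.

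MRPL42, a large subunit protein without a bacterial counterpart, had 9.52 FPKM with si-FENDRR against 4.30 FPKM with si-NC in LM3, and 12.4 against 6.10 FPKM in RBE. Again both si-FENDRR libraries stood above both si-NC libraries. Its log2 difference was 0.95 ± 0.12 (SE, n = 2 lines), with an adjusted p of 0.959 by limma. The gene lies at chr12:93467488-93516213 on the plus strand and has 10 annotated transcripts.

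MRPS11 and MRPL46 are a divergent pair whose start sites are 34 bp apart on chromosome 15, and their values went opposite ways. MRPS11, the counterpart of bacterial uS11 in the small subunit, had 15.2 FPKM with si-FENDRR against 10.9 FPKM with si-NC in LM3, and 21.4 against 12.5 FPKM in RBE. MRPL46, of the central protuberance of the large subunit, had 11 against 13.2 FPKM in LM3, and 16.3 against 23.7 FPKM in RBE. The ratio of MRPS11 to MRPL46 was 1.39 in LM3 with si-FENDRR against 0.828 in LM3 with si-NC, and 1.31 against 0.53 in RBE. Neither gene passed the threshold (log2 differences of 0.58 ± 0.13 and -0.38 ± 0.13 SE, each with an adjusted p of 0.959 by limma). AC013489.1, which shares exon bases with MRPL46 on its strand, had 1.64 against 0.75 FPKM in LM3, and in RBE it was listed at 0 with si-FENDRR against 0.975 FPKM with si-NC. The strand setting of the libraries is not known here, so reads of a gene and of a gene on its other strand may not be separated.

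**Figure D3:**
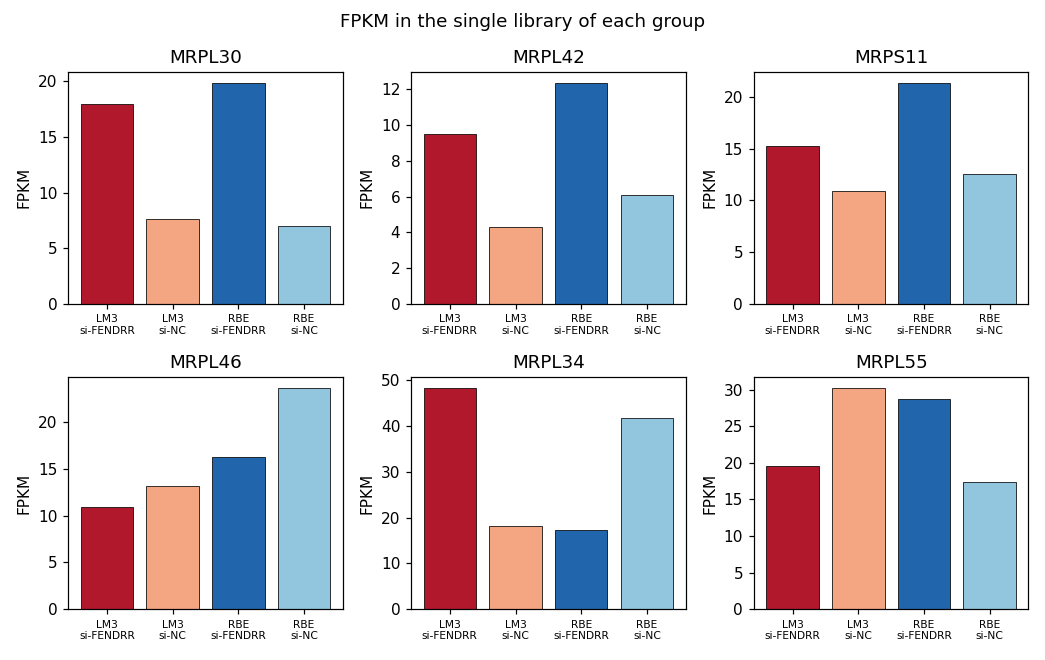
FPKM of 6 genes in the single library of each group, with bars from 0 and no error bars, since each bar is 1 library. MRPL30, MRPL42 and MRPS11 are higher with si-FENDRR in each line, MRPL46 is lower in both, and MRPL34 and MRPL55 change order between the lines.

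Of the other genes whose values differed in the same direction in each line, 4 picked by their coefficients follow, and none passed the threshold. MRPS28, a small subunit protein, had 15.1 FPKM with si-FENDRR against 23.7 FPKM with si-NC in LM3, and 19.8 against 28.5 FPKM in RBE (log2 difference -0.56 ± 0.12 SE). MRPL32, the counterpart of bacterial bL32, had 48.1 against 37.7 FPKM in LM3, and 45.1 against 35.6 FPKM in RBE (0.34 ± 0.11). MRPL43, specific to mitochondria, had 36.9 against 29.7 FPKM in LM3, and 38.4 against 30.6 FPKM in RBE (0.31 ± 0.11). In MRPL32 and MRPL43 both si-FENDRR libraries stood above both si-NC libraries, and in MRPS28 both stood below. MRPL4, the counterpart of bacterial uL4, had 46.8 against 38.6 FPKM in LM3, and 37.7 against 31.8 FPKM in RBE. Its si-FENDRR libraries were higher within each line but overlapped the si-NC libraries across lines.

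MRPL11, MRPL3 and MRPL9 had lower values with si-FENDRR in each line, with the wider gap in RBE. MRPL11, at the base of the stalk, had 31.4 FPKM with si-FENDRR against 35.7 FPKM with si-NC in LM3, and 30.0 against 43.4 FPKM in RBE. MRPL3, the counterpart of bacterial uL3, had 32.0 against 33.1 FPKM in LM3, and 24.3 against 35.6 FPKM in RBE. MRPL9, the counterpart of bL9, had 56.3 against 59.9 FPKM in LM3, and 32.9 against 46.8 FPKM in RBE. In these 3 genes the log2 differences were -0.18, -0.05 and -0.09 in LM3 and -0.52, -0.53 and -0.49 in RBE. The difference between the lines was not tested. AL589765.4, which shares exon bases with MRPL9 on its strand, had 1.96 against 3.68 FPKM in LM3 and 1.18 against 1.67 FPKM in RBE. On the other strand, OAZ3 overlaps MRPL9, with 6.57 against 7.40 FPKM in LM3 and 2.63 against 2.51 FPKM in RBE. PELI3 overlaps MRPL11 there, with 6.33 against 6.70 FPKM in LM3 and 3.04 against 6.06 FPKM in RBE. The part of these overlaps was not tested. MRPL36, the counterpart of bacterial bL36, had 35.1 against 32.3 FPKM in LM3 and 25.5 against 38.7 FPKM in RBE. MRPL19, of the large subunit, had 6.02 against 9.20 FPKM in LM3 and 7.83 against 7.28 FPKM in RBE.

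MRPL34 and MRPL55 went opposite ways in the lines. MRPL34, the counterpart of bacterial bL34, had 48.3 FPKM with si-FENDRR against 18.1 FPKM with si-NC in LM3, and 17.2 against 41.8 FPKM in RBE. The LM3 si-FENDRR and RBE si-NC libraries were high and the other two were low, with log2 differences of 1.37 in LM3 and -1.24 in RBE. The gene lies at chr19:17292609-17306843 on the plus strand, and ABHD8, whose exons overlap it on the other strand, had 4.96 against 5.56 FPKM in LM3 and 8.44 against 9.43 FPKM in RBE. MRPL55, specific to mitochondria, had 19.5 against 30.2 FPKM in LM3 and 28.7 against 17.3 FPKM in RBE. It lies at chr1:228106679-228109312 on the minus strand and has 34 annotated transcripts, the most of the 78.

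The 6 genes that differed at least 1.5-fold in either line had a median of 9.5 annotated transcripts, and the longest was a median of 6.39 times the shortest. The other 72 genes had a median of 5 transcripts and a ratio of 3.72. FPKM depends on the transcript length the authors' program assigned, and its part in these differences was not tested. The share of all FPKM from mitochondrial DNA also differed between the transfections, being 21.6% in LM3 with si-FENDRR against 18.8% in LM3 with si-NC, and 21.8% against 24.0% in RBE. Its part in the result was not tested.

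Between the lines, the genes tended to be lower in LM3 than in RBE. limma called 44 of the 78 between LM3 and RBE (56.4%, against 58.7% of all genes tested), so as a share they differed about as often as other genes. By direction, 11 were higher in LM3 (14.1%, against 32.3% of all genes) and 33 were lower (42.3%, against 26.4%). Of those called and at least 2-fold apart, 0 were higher in LM3 (17.5% of all genes) and 10 were lower (12.8%, against 13.1%). The median log2 difference, LM3 minus RBE, was -0.29, against 0.09 over all genes tested. Each line has 2 libraries that differ in transfection, so no replicate culture of 1 condition stands behind these p-values. They set the line difference against a variance taken partly from how alike it was in both transfections and partly from other genes. The fits with a library left out had no transfection term, and the line that lost a library kept 1. Each of these fits also called a smaller share of all genes tested, so lost calls were not particular to the genes described here. The share of all called genes kept throughout is not known. With any single library left out, 18 of the 44 calls were kept throughout, 15 of the 33 lower in LM3 and 3 of the 11 higher. Without the si-FENDRR library of LM3, 6 genes were called higher in LM3 and 26 lower, and without its si-NC library 7 and 21. Without the si-FENDRR library of RBE, 4 were called higher in LM3 and 23 lower, and without its si-NC library 5 and 19. In bulk RNA, fewer cells with a transcript and less of it per cell cannot be told apart.

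**Figure D4:**
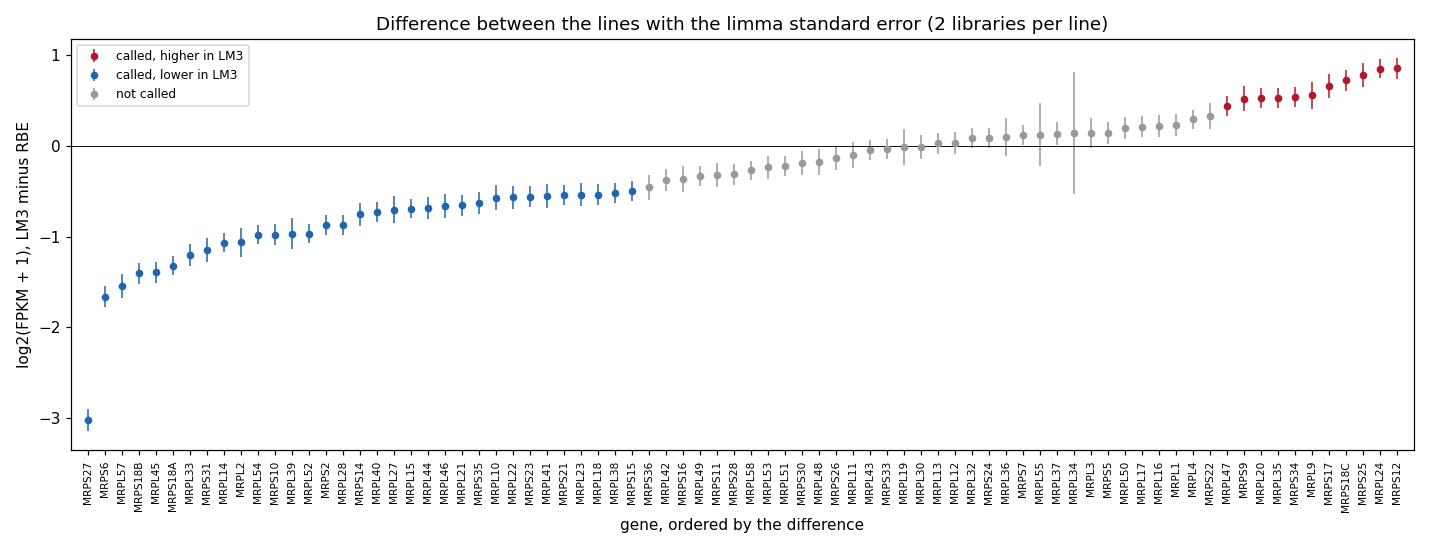
Difference in log2(FPKM + 1), LM3 minus RBE, of each gene in rising order, with the limma standard error from 2 libraries per line. Blue genes were called lower in LM3, red genes higher, and grey genes were not called. MRPS27 stands apart at -3.02.

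MRPS27, a small subunit protein with pentatricopeptide repeats, differed most. It had 7.73 and 9.54 FPKM with si-FENDRR and si-NC in LM3, against 75.5 and 78.1 FPKM in RBE. Its log2 difference was -3.02 ± 0.12 (SE, n = 2 libraries per line), with an adjusted p of 0.000956 by limma. The gene (ENSG00000113048) lies at chr5:72219409-72320646 on the minus strand and has 16 annotated transcripts. PTCD2, which shares exon bases with it on the other strand, was at 2.52 and 1.18 FPKM in LM3, against 2.45 and 3.51 FPKM in RBE.

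Of the small subunit genes, MRPS6, the counterpart of bacterial bS6, had 21.6 and 26.2 FPKM in LM3 against 74.6 and 80.1 FPKM in RBE (log2 difference -1.66 ± 0.12, adjusted p of 0.00202 by limma). SLC5A3, which shares exon bases with MRPS6 on its strand, was at 3.40 and 3.43 FPKM in LM3, against 5.17 and 4.97 FPKM in RBE. MRPS31, specific to mitochondria and the lowest of the 78 by mean, had 2.79 and 2.52 FPKM in LM3 against 7.82 and 6.44 FPKM in RBE. In the other direction, MRPS12, the counterpart of bacterial uS12 at the decoding site, had 90.3 and 94.0 FPKM in LM3 against 53.6 and 47.9 FPKM in RBE (0.85 ± 0.12). MRPS25, specific to mitochondria, had 10.9 and 11.3 FPKM in LM3 against 6.49 and 5.59 FPKM in RBE, and MRPS17, the counterpart of uS17, had 14.3 and 15.6 FPKM against 7.91 and 10.5 FPKM. The calls of MRPS25 and MRPS17 were each lost in 3 of the 4 fits with a library left out. In all, 6 of the 26 small subunit genes were called higher in LM3 and 11 lower, where 32.3% and 26.4% of all genes tested were.

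The 3 MRPS18 paralogs, which are thought to occupy different places in the ribosome, did not go together. MRPS18B had 27.1 and 32.5 FPKM in LM3 against 79.0 and 81.8 FPKM in RBE. MRPS18A, which sits in the large subunit, had 29.4 and 28.1 FPKM in LM3 against 73.6 and 72.8 FPKM in RBE. MRPS18C had 16.7 and 15.9 FPKM in LM3 against 9.57 and 9.47 FPKM in RBE. MRPS18B and MRPS18A were called lower in LM3 (log2 differences of -1.41 ± 0.12 and -1.32 ± 0.11), and MRPS18C was called higher (0.72 ± 0.12). The sum of the 3 was 73.2 and 76.5 FPKM in LM3 against 162 and 164 FPKM in RBE. MRPS18C made up 22.8% and 20.8% of that sum in LM3, and 5.9% and 5.77% in RBE.

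Of the 51 large subunit genes, 5 were called higher in LM3 and 22 lower. The 22 specific to mitochondria had 0 called higher in LM3 and 11 lower, with a median log2 difference of -0.45. Of all genes tested, 32.3% were called higher in LM3 and 26.4% lower. With at least 1 library left out, 6 of the 11 calls were lost. MRPL57 had 7.26 and 7.79 FPKM in LM3 against 25.2 and 22.5 FPKM in RBE (-1.54 ± 0.13). MRPL45, which anchors the ribosome to the inner membrane, had 23.0 and 20.9 FPKM in LM3 against 58.7 and 59.8 FPKM in RBE (-1.39 ± 0.11). MRPL54 had 23.9 and 24.7 FPKM in LM3 against 47.6 and 50.1 FPKM in RBE, and MRPL52 had 26.8 and 27.5 FPKM against 52.4 and 55.8 FPKM.

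The 29 large subunit genes with bacterial counterparts had 5 called higher in LM3 and 11 lower, with a median log2 difference of 0.03. The shares of all genes tested were 32.3% higher and 26.4% lower. With at least 1 library left out, 4 of the 5 and 8 of the 11 calls were lost. MRPL33 had 25.8 and 26.6 FPKM in LM3 against 56.1 and 67.2 FPKM in RBE, MRPL14 had 34.2 and 33.9 FPKM against 71.6 and 73.4 FPKM, and MRPL2, at the catalytic core, had 16.5 and 12.7 FPKM against 30.5 and 32.3 FPKM. Their log2 differences were -1.20 ± 0.12, -1.07 ± 0.11 and -1.06 ± 0.16, and the call of MRPL2 was lost when either RBE library was left out (largest adjusted p of 0.0765 by limma). BABAM2, which shares exon bases with MRPL33 on its strand, was at 19.96 and 15.1 FPKM in LM3, against 47.1 and 51.4 FPKM in RBE. MRPL24 was higher in LM3 by 0.85 ± 0.11. MRPL20 had 61.4 and 56.2 FPKM in LM3 against 40.3 and 41.0 FPKM in RBE, and MRPL35, MRPL47 and MRPL9 were called higher in LM3 with log2 differences of 0.52, 0.44 and 0.55. The calls of these 4 were each lost in at least 2 of the 4 fits with a library left out.

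By place in the large subunit, 5 of 6 genes of the central protuberance were called lower in LM3 and 0 higher, with a median of -0.60. Of all genes tested, 26.4% were called lower and 32.3% higher. None of these 5 calls was kept in all 4 fits with a library left out, and that of MRPL46 was kept in 0. Around the polypeptide exit, 2 of 8 were called higher (MRPL24 and MRPL47) and 5 lower, and of these MRPL24 and MRPL45 kept their calls in all 4 fits. In the stalk and its base, 1 of 3 was called, MRPL10, at 23.3 and 18.1 FPKM in LM3 against 31.4 and 30.7 FPKM in RBE. That call was lost in 3 of the 4 fits with a library left out.

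By chromosome, every gene on chromosomes 6, 13 and 21, and the only one on each of 14 and 22, was called lower in LM3. Over all chromosomes, 26.4% of the genes tested were called lower and 32.3% higher. These shares are not known for each chromosome. On chromosomes 10, 12, 15 and 20 every gene also had a log2 difference below 0. On each of 12 and 15, 1 gene was called, and on 10 and 20 there were 0 calls. In MRPL43, MRPL42, MRPS11 and MRPS26, on these chromosomes, the libraries of the lines overlapped. On chromosome 6, 6 of 6 genes were called lower in LM3, with a median log2 difference of -1.07, against -0.22 over all 792 genes tested there. Of these, 5 (MRPS18B, MRPS10, MRPL2, MRPS18A and MRPL14) lie within chr6:30617709-44127457, a stretch chosen after their values were seen, with differences from -1.41 to -0.98. The 219 other genes tested in that stretch had a median of -0.49, with 30 called higher in LM3 and 102 lower. On chromosome 13 both genes, MRPL57 and MRPS31, were called lower, against a median of -0.94 over all genes tested there. On chromosome 21 both genes, MRPS6 and MRPL39, were called lower, against a median of -0.12. MRPL2 and MRPL39 kept their calls in 2 of the 4 fits with a library left out, and MRPL18, also on chromosome 6, in 3. On chromosome 3 the 4 genes had differences from 0.14 to 0.78, against a median of 0.55. Copy number was not measured here.

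**Figure D5:**
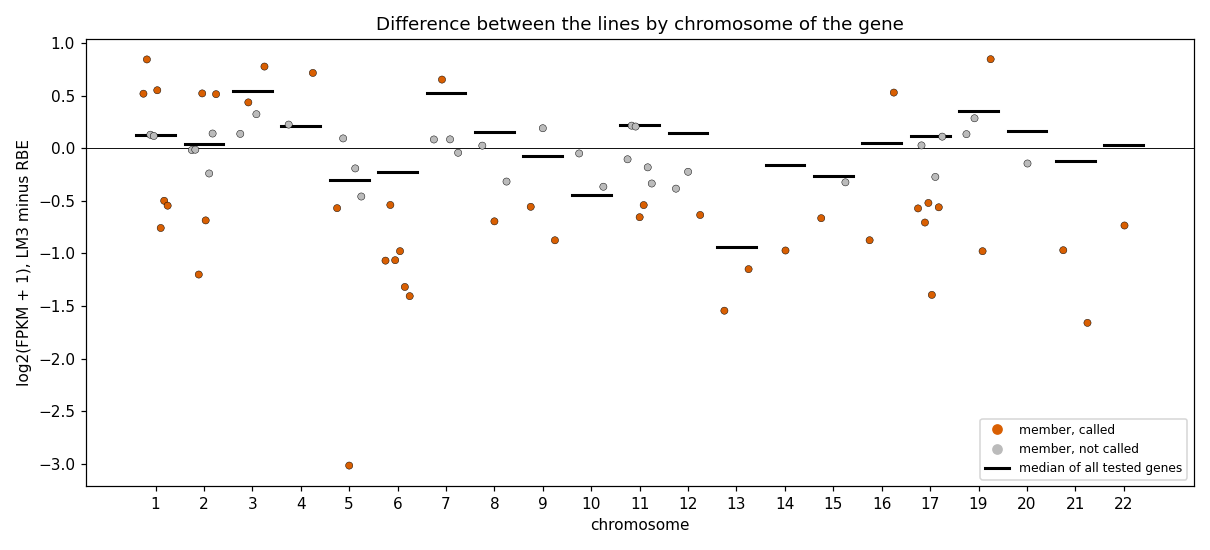
Difference in log2(FPKM + 1), LM3 minus RBE, of each gene by chromosome. Orange points were called, grey points were not, and black bars are the median of all genes tested on that chromosome. The 6 genes of chromosome 6 all lie below that chromosome's median of -0.22.

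Other genes of mitochondrial translation were read from lists made by function. Beside the counts from these lists, 32.3% of all genes tested were called higher in LM3 and 26.4% lower. No gene of these lists passed the threshold between the transfections. Of 5 mitoribosomal proteins under other names, 1 was called higher in LM3 and 1 lower. The higher was DAP3, a small subunit GTP-binding protein, at 102 and 109 FPKM in LM3 against 60.3 and 61.9 FPKM in RBE. Of 26 assembly factors, 5 were called higher in LM3 and 10 lower. MTERF3 was at 22.9 and 19.5 FPKM in LM3 against 10.5 and 9.20 FPKM in RBE, and the GTPase NOA1 was at 6.29 and 6.54 against 18.3 and 18.6 FPKM. Of 12 translation factors, 2 were called higher and 3 lower. The elongation factor GFM1 was at 20.03 and 18.9 FPKM in LM3 against 11.2 and 10.2 FPKM in RBE, and the recycling factor MRRF was at 7.17 and 11.5 against 32.2 and 29.7 FPKM.

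Of 17 mitochondrial aminoacyl-tRNA synthetases, 2 were called higher in LM3 and 10 lower, with a median log2 difference of -0.51. Of 11 genes of mitochondrial DNA transcription and replication, 1 was called higher and 5 lower. Of 18 import and matrix proteins, a mark of mitochondrial content, 6 were called higher and 8 lower. The matrix chaperone HSPD1 was at 273 and 278 FPKM in LM3 against 109 and 113 FPKM in RBE, and the outer membrane channel VDAC2 was at 35.9 and 29.9 against 151 and 108 FPKM. Of the 13 protein genes of mitochondrial DNA, 2 were called higher in LM3 and 2 lower. All 13 were higher with si-FENDRR than with si-NC in LM3, and 12 of 13 were lower in RBE, and the difference between the lines was not tested. The large ribosomal RNA MT-RNR2, the core of the large subunit, was at 5011 and 4243 FPKM in LM3 against 8843 and 9262 FPKM in RBE. Libraries made from messenger RNA catch ribosomal RNA only in part.

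Of 9 regulators of mitochondrial biogenesis, 1 was called higher in LM3 and 1 lower. MYC was at 12.8 and 6.04 FPKM with si-FENDRR and si-NC in LM3 against 3.07 and 2.30 FPKM in RBE, and the coactivator PPARGC1A at 0.0236 and 0.0207 against 2.54 and 2.60 FPKM. NRF1, GABPA and YY1, the factors of the motifs above, were not called between the lines. The cytosolic ribosomal protein genes, the most similar family, had 1 called higher in LM3 and 72 lower of 81 tested, with a median log2 difference of -1.01, against -0.29 for the 78 mitochondrial ones. Between the transfections their medians were -0.09 in LM3 and 0.02 in RBE.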

How the data were processed

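Libraries of messenger RNA from LM3 and RBE cells with si-FENDRR or si-NC were compared, 1 library per group. The deposited values are FPKM, as the file headers state. Per the submitters' processing notes, FastQC and HISAT2 were used, with the build hg38. The FPKM program, its annotation and the strand setting are stated in neither the labels nor the headers. The single-library files held the same values as the joint table.

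limma 3.58.1 in R 4.3.3 was fitted to log2(FPKM + 1) of the 15930 genes that reached 1 FPKM in some library, with terms for line and transfection, a trended prior variance and 1 residual degree of freedom. Adjusted p-values are Benjamini-Hochberg over all these genes, and a gene is called when its value is under 0.05. Fold changes on this scale understate those of low genes. How many differences the fit misses, and how many unchanged genes it calls, was not tested with as many genes differing as were called between the lines. With 1 residual degree of freedom, a gene not called is not shown to be unchanged, and the error rate of the calls is not guaranteed. Coordinates are those of the files, and overlaps, transcripts and start sites come from GENCODE 29. Promoters come from RefSeq, and those printed were picked by expression values after earlier matches had been seen.

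The genes and lists were chosen with earlier results of these data known. Values were to be given for the 6 highest and 6 lowest genes by mean, the 10 highest and lowest by each limma coefficient, those past 1.5-fold in both lines, called genes and genes sharing bases. For the rest of these, the values are in the plot of levels. Alternatives covered the pseudocount, filter, scaling, prior, model terms, fold rule, overlapping genes and single libraries left out. Fits with a library left out had the line term only.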

Additional observations from a re-analysis of the deposited data

Results flagged for a closer look

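MRPL34 stood out because its difference between si-FENDRR and si-NC had opposite signs in the lines, at 1.37 in LM3 and -1.24 in RBE on the log2(FPKM + 1) scale. MRPL55 stood out for the same reason, at -0.60 in LM3 and 0.70 in RBE. With 1 library per group, neither difference between the lines was tested, and 0.734% of all genes tested went opposite ways by at least 1.5-fold in both lines.

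Of 69 rows named after these genes but outside the name rule, such as pseudogenes and readthrough models, 3 reached an FPKM of 1. The pseudogene MRPL45P2 stood out, because it was at 3.37 FPKM with si-FENDRR against 1.56 FPKM with si-NC in LM3. In RBE it was at 3.91 against 4.41 FPKM. How reads shared with MRPL45 were assigned is not known here.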

How the results depend on the processing

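No paired analysis was possible because each group has only 1 library to pair by replicate number. The line term itself pairs the transfections within each line, and the fit without it is the unpaired one. No member was called between the transfections by limma under any alternative run for it. The 7 genes at an unadjusted p under 0.05 became 4 with a prior without a trend and 1 without the line term. They became 2 and 3 when genes overlapping another on their strand, or sharing exons on either strand, were left out. Among the 45 genes left in that last set, an alternative chosen after seeing the data, 4 were called higher in LM3, 1 was past 1.5-fold higher in LM3, 0 were lower in RBE and 1 was higher in both lines, with a line median of -0.54. Leaving out overlaps on the same strand gave 1 higher and 1 lower in LM3, 2 higher in RBE, 0 higher in both, a median of 0.01 in LM3 and a line median of -0.33. As reported, 32.3% of all genes tested were called higher in LM3 than in RBE and 26.4% lower. Past 1.5-fold with si-FENDRR were 4.49% higher and 3.47% lower in LM3, and 3.18% and 3.09% in RBE. Higher in both lines were 0.326%. These shares were not refigured with overlapping genes left out. The 2-fold rule gave 0 lower in LM3, 1 higher in RBE and 1 higher in both, a pseudocount of 5 gave 0 lower in LM3, and a pseudocount of 0.1 gave 2 lower in RBE. Median-of-ratios scaling gave 2 lower in RBE, a line median of -0.40, and transfection medians of -0.03 over both lines and -0.07 in RBE. It moved the median of all genes between the lines to 0.01, against 0.09 as reported and 0.13 with library totals, and the called genes that were higher in LM3 to 17.0%, against 25%. Library totals gave medians of -0.05 in LM3 and 0.01 in RBE.

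With single libraries left out, 4 to 7 genes were called higher in LM3 and 19 to 26 lower, and the line median ran from -0.38 to -0.22. Of all genes, 35.0% to 43.8% were then called. Line differences of 49 single genes were refitted: 65 calls were lost with a library left out and 5 under other alternatives, and MRPL42 was called at -0.47 with median-of-ratios scaling. Reversals were in genes not called: MRPL30 (-0.01 as reported, 0.02 with library totals, and from -0.71 to 0.68), MRPL42 (-0.88 to 0.11), MRPS11 (-0.68 to 0.04), MRPL34 (-0.55 to 0.82) and MRPL55 (-0.23 to 0.47) with single libraries left out. The fits with a library left out had no transfection term, so a gene's difference between the transfections entered its line difference. The cause of the reversal with library totals was not tested. With 1 residual degree of freedom and no read counts, precision cannot be judged gene by gene.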

Other observations

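Of the 78 genes, 31 (39.7%) had a gene of at least 1 FPKM that starts within 1000 bp on the other strand, against 19.9% of all genes tested, noncoding ones included. In the MRPL36 and MRPL47 pairs the partner is a nuclear gene for a mitochondrial protein, the respiratory complex I subunits NDUFS6 and NDUFB5. Other pairs are of this kind too, among them MRPS11 with MRPL46, MRPL43 with TWNK and MRPS12 with SARS2. NDUFB5 had 12.9 FPKM under si-FENDRR against 22.6 FPKM under si-NC in LM3, and 32.8 against 37.6 FPKM in RBE. MRPL47 had 25.7 against 25.4 FPKM in LM3 and 18.4 against 18.7 FPKM in RBE. NDUFB5 was picked after its values were seen.

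Promoters with and without a motif match had close medians of the difference between the transfections. The median log2 difference, si-FENDRR minus si-NC, was 0.02 in the 29 genes with an ETS match against -0.02 in the 40 without. Between the lines, LM3 minus RBE, the 13 genes with a YY1 match had a median of -0.52 and the 56 without had -0.16. The medians were -0.24 with an ETS match and -0.15 without, and -0.03 in the 8 genes with an NRF1 match and -0.24 in the 61 without. These differences were not tested.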
